A study of Mus musculus with 12 samples.

Results

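The SWI/SNF chromatin remodelling subunits were followed over 4 mouse lung adenocarcinoma cell lines. The set is 10 of the 18193 genes named on the array: Smarca2, Smarca4, Smarcb1, Smarcc1, Smarcc2, Smarce1, Smarcd1, Smarcd3, Arid1a and Arid1b. A probe set is a group of short oligonucleotides read out as one signal. Every probe set annotated to only one of these symbols was taken, which gave 21 of the 45037 that were tested.

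SWI/SNF complexes use the energy of ATP to slide and evict nucleosomes, and so open or close promoters and enhancers to transcription factors. Each complex holds a single ATPase, SMARCA2 (BRM) or SMARCA4, on a shared core, and takes up alternative partners that make it a canonical BAF, a PBAF or a non-canonical BAF complex. In human lung adenocarcinoma SMARCA4 and ARID1A are recurrently mutated, and SMARCA2 can be silenced without mutation.

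The cell lines KC1, KC2, KC3 and KC4 were grown from primary lung tumours of mice that carry K-rasLA1/+ and are Cdkn1a-/-, without p21, a brake on the cell cycle. The K-rasLA1 allele becomes active through spontaneous recombination in scattered cells, so no Cre driver is involved. All 4 lines share this genotype, the strain background given as 127s and culture in RPMI medium with fetal bovine serum, and no treatment is labelled. The label of KC1 to KC3 is highly metastatic and that of KC4 poorly metastatic, with 3 biological replicates of 1 array each. The labels count 6 tumours of 4 mice as the source and do not assign lines to mice. The poorly metastatic class is therefore a single cell line, and a difference of class and a difference of KC4 from the rest cannot be told apart.

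Values below are linear array signals, or log2 signals after signals under 16 were raised to 16, so that 4.00 is the floor. Median signals per array ran from 94.5 to 128, and 15.3% to 20.0% of the probe sets lay at the floor. Arrays of one line correlated at 0.978 to 0.984 and arrays of different lines at 0.898 to 0.945. The 5 epithelial markers tested were bright in every line, with line means between 12.63 for Epcam and 14.53 for Krt18 (log2). Of the lung lineage markers, Napsa lay at the floor in all 4 lines, Nkx2-1 had line means of 4.18 to 5.41, Sftpc of 6.63 to 6.86 and Sftpb of 7.58 to 8.15. Epithelial markers were thus bright, and of the 4 lung lineage markers Napsa was at the floor and Nkx2-1 near it. The brightest probe sets of both surfactant genes lay above it, but Sftpc 1438290_x_at had line means of only 4.08 to 4.78. The brightest probe sets of the 15 fibroblast, leukocyte and endothelial markers had line means of 4.00 to 8.34, a range that holds the surfactant values. The control probe set for the 5′ end of 18S ribosomal RNA averaged 3305 in KC4 and 490 in the other lines, and the one for its 3′ end 868 in KC4 and 485 to 590 elsewhere. This difference accompanies every comparison with KC4, and its part in the results was not tested.

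Differences were tested with limma over all 12 arrays, and a probe set passed at a Benjamini-Hochberg adjusted p under 0.05. It was called when the log2 difference was also at least 1. Of the 21 member probe sets, 13 (61.9%) differed among the 4 lines in limma's F test, against 38.6% of all probe sets. Among the 14 member probe sets with a mean log2 signal of at least 8, 71.4% differed among lines, against 75.1% of the 15552 probe sets that bright. The median difference between highly metastatic lines and KC4 was -0.08 over the members and 0 over all probe sets, and its median size was 0.19 and 0.23.

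In the contrast of metastatic class, the average of KC1 to KC3 minus KC4, 1 member probe set was called higher (Smarca2), against 2.49% of all probe sets, and 1 was called lower (Smarcd3), against 2.10%. By adjusted p alone 3 were higher, against 12.2% of all, and 4 were lower, against 11.2%. Fold changes past the minimum were therefore found for 2 subunits, an ATPase and a SMARCD subunit, in opposite directions. For the 14 bright probe sets, the range between line means had a median of 0.50 and a maximum of 0.92 on the log2 scale, beside a median SD between arrays of a line of 0.0954, and 0 of the 14 were called in any pair of lines, while 4 to 8 of them passed limma's adjusted p alone in each pair. Of all probe sets that bright, 22.7% were called in some pair, a background for the 0 of 14 only. Their share past the adjusted p alone in each pair was not computed. The counts of 4 to 8 therefore have no matching background and do not show more line differences in the members than in other bright probe sets.

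Between pairs of lines the calls fell on 3 of the 21 member probe sets (14.3%, against 17.7% of all probe sets), one each of Smarca2, Smarcd3 and Smarcb1. KC1 and KC2 differed in 3 member probe sets (background 4.04%), KC1 and KC3 in 2 (7.00%), KC1 and KC4 in 1 (4.75%), KC2 and KC3 in 2 (9.42%), KC2 and KC4 in 2 (7.99%), and KC3 and KC4 in 2 (6.70%). By adjusted p alone the counts were 7 for KC1 and KC2 (background 18.2%), 9 for KC1 and KC3 (25.0%), 7 for KC1 and KC4 (18.3%), 10 for KC2 and KC3 (29.3%), 10 for KC2 and KC4 (26.7%) and 6 for KC3 and KC4 (24.4%). These backgrounds cover bright and dim probe sets alike, while 14 of the 21 members are bright. The matching shares of bright probe sets alone were not computed. The comparisons that share a line share its 3 arrays. The count of 3 between KC1 and KC2 was 1 (Smarca2) when any KC1 array, any KC4 array, KC2 replicate 2 or KC3 replicate 1 was left out, and that of 2 between KC2 and KC3 was 1 without KC3 replicate 1.

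**Figure D1:**
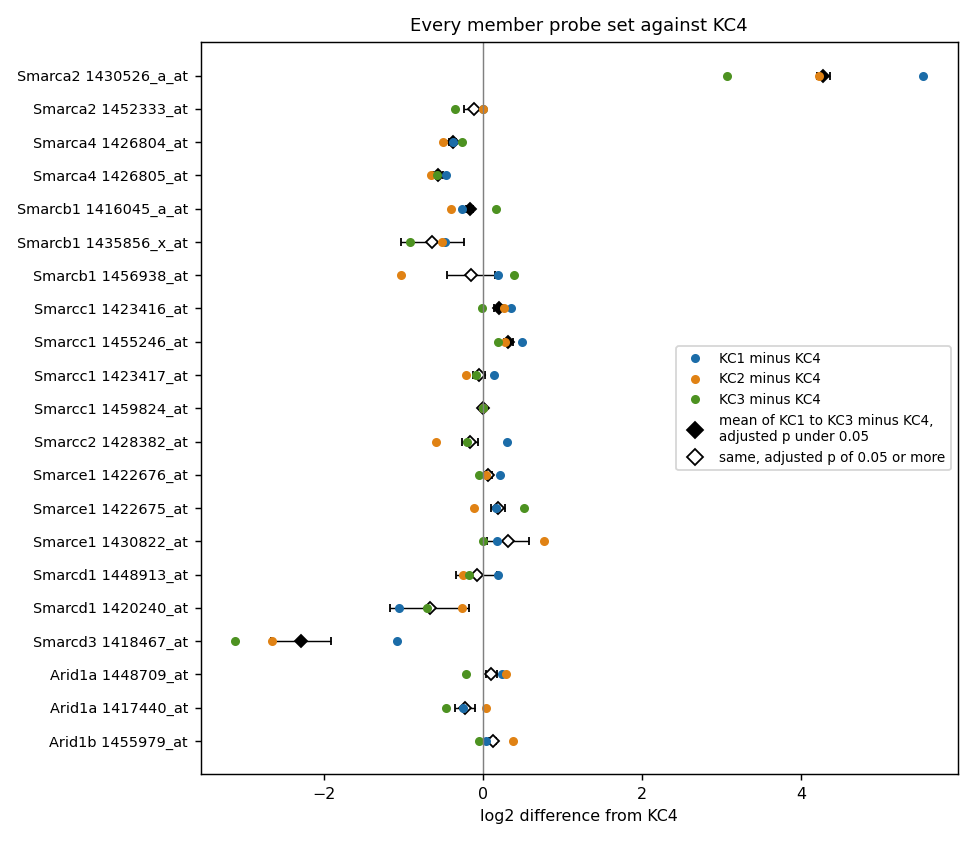
All 21 member probe sets on a log2 scale of the difference from KC4: coloured points are KC1, KC2 and KC3 minus KC4, diamonds the mean of those 3 differences with its standard error, filled where the adjusted p was under 0.05. Smarca2 1430526_a_at lies far to the right at 4.28, Smarcd3 to the left at -2.29, and the other diamonds lie between -0.67 and 0.32.

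Smarca2 encodes the ATPase BRM. On probe set 1430526_a_at its signals were 730, 747 and 753 for KC1, 338, 283 and 281 for KC2, 152, 114 and 140 for KC3, and 4.31, 3.78 and 2.09 for KC4. No groups overlapped: KC1 was highest, then KC2 and KC3, and all 3 KC4 arrays lay under the floor. The line means were 9.54 ± 0.0234, 8.23 ± 0.149 and 7.07 ± 0.214 (log2, SD, n = 3), with KC4 at 4.00. Taken against the floor, Smarca2 signal was at least 46.5-fold higher in KC1, at least 18.7-fold higher in KC2 and at least 8.40-fold higher in KC3 than in KC4. In RNA from a whole culture, fewer cells with the transcript and less of it per cell cannot be told apart.

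The class difference of this probe set was 4.28 on the log2 scale (SE 0.0846, limma adjusted p = 6.92e-09), a lower bound since KC4 is at the floor. Smarca2 was also called between the highly metastatic lines themselves. KC1 exceeded KC2 by 1.31 (adjusted p = 4.38e-05), KC1 exceeded KC3 by 2.47 (adjusted p = 6.07e-07) and KC2 exceeded KC3 by 1.16 (adjusted p = 3.42e-05), all in log2 units. The step from KC2 to KC3 fell under the minimum of 1 after quantile normalization or median centring. Smarca2 was the only member that set a line apart, meaning that it was called in one direction in all 3 comparisons of that line, which 5.10% of all probe sets did. It set apart KC4 as lowest and also KC1 as highest. Without KC3 replicate 2, or without replicate 3, Smarcb1 1456938_at also met this definition, for KC2.

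The other Smarca2 probe set, 1452333_at, gave a different picture. Its signals were 117, 90.0 and 83.7 for KC1, 97.6, 83.6 and 108 for KC2, 65.5, 81.3 and 79.5 for KC3, and 99.6, 85.1 and 103 for KC4. The 3 KC3 arrays were lowest and the other lines overlapped, with KC4 among them. The class difference was -0.11 (SE 0.124, limma adjusted p = 0.631), and the 4 lines did not pass the F test (adjusted p = 0.217). The loss of Smarca2 signal in KC4 thus rests on 1 of 2 probe sets. Which part or isoform of the transcript each of them matches was not analysed here.

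**Figure D2:**
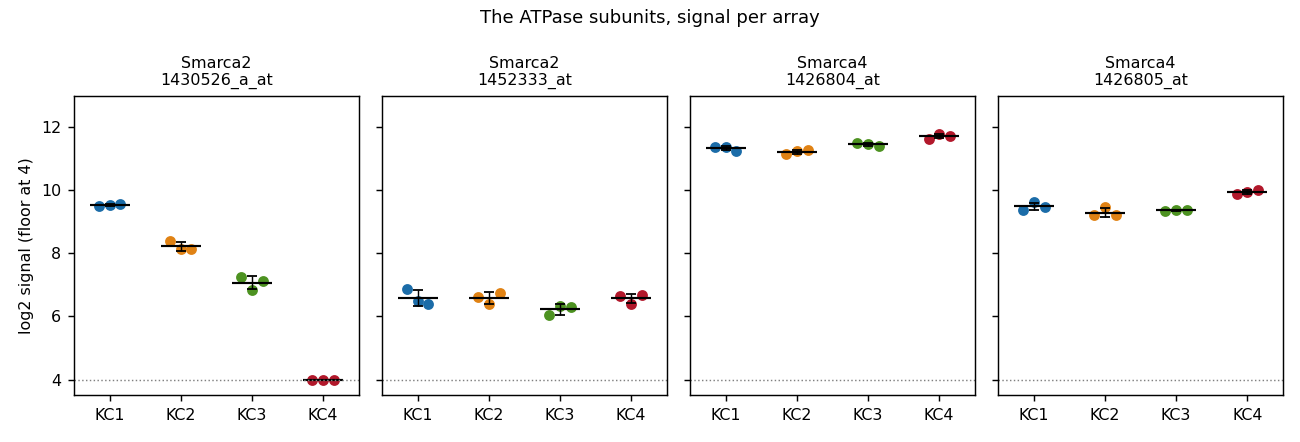
Log2 signal of the 4 ATPase probe sets in each of the 12 arrays (points), with the line mean and SD (bars) and the floor as a dotted line at 4. Smarca2 1430526_a_at steps down from 9.54 in KC1 to the floor in KC4, Smarca2 1452333_at does not, and both Smarca4 probe sets are highest in KC4.

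Smarca4 encodes BRG1, the alternative ATPase of the same complexes. On probe set 1426804_at its signals were 2677, 2656 and 2458 for KC1, 2281, 2439 and 2482 for KC2, 2926, 2846 and 2720 for KC3, and 3200, 3537 and 3424 for KC4. All KC4 arrays were above all others, KC3 was next, and KC1 and KC2 overlapped. On 1426805_at the signals were 662, 786 and 718 for KC1, 592, 707 and 594 for KC2, 651, 670 and 666 for KC3, and 942, 996 and 1038 for KC4. KC4 was again highest on every array, and the other 3 lines overlapped.

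The class differences of Smarca4 were -0.38 (SE 0.0437, limma adjusted p = 0.00024) on 1426804_at and -0.57 (SE 0.0671, limma adjusted p = 0.00028) on 1426805_at. These are 1.30-fold and 1.48-fold higher signals in KC4. Each highly metastatic line lay below KC4, by 0.26 to 0.50 on the first probe set and by 0.46 to 0.66 on the second, and each of these 6 differences passed, with adjusted p of 0.00686 or less. Among KC1, KC2 and KC3, KC3 exceeded KC2 on 1426804_at by 0.24 (adjusted p = 0.00853) and no other difference on either probe set passed. The line in which Smarca2 1430526_a_at was at the floor was thus the line with the highest Smarca4 signal, with a much smaller change in Smarca4.

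The promoters of the 3 members with the differences described at most length are shown because their line-dependent signals ran in opposite directions. Sequences are RefSeq windows of 300 bases on GRCm38.p6, from 250 bases before the annotated start to 50 after it, read 5′ to 3′ on the gene's strand, and capitals mark the GC box GGGCGG or its complement CCGCCC. Smarca2 is at chr19:26604910-26605209 on the plus strand, Smarca4 at chr9:21615919-21616218 on the plus strand and Smarcd3 at chr5:24601953-24602252 on the minus strand.
Smarca2: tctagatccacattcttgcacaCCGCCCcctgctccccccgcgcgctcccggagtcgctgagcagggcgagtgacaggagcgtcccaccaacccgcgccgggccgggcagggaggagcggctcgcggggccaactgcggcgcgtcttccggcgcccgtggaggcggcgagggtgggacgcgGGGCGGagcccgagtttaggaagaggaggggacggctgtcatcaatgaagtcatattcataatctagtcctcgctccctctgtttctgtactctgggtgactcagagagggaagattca
Smarca4: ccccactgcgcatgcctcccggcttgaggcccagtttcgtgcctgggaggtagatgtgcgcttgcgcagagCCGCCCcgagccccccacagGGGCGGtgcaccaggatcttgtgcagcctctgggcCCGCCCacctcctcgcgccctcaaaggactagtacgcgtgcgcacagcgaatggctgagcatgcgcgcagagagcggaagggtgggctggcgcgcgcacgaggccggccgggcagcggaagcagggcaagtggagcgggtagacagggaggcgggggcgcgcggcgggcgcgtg
Smarcd3: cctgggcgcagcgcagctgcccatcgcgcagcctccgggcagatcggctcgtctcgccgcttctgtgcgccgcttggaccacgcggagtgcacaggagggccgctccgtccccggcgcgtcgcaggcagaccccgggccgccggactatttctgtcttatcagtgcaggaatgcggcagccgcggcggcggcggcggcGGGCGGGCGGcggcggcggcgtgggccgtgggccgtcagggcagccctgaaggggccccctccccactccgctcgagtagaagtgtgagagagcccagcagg
These windows hold 29, 33 and 40 CG dinucleotides, beside a median of 7 over 32851 windows, and 12.9%, 8.56% and 3.91% of all windows hold at least as many. Windows were found for 9 of the 10 members, 10 windows in all. GGGCGG, searched on both strands with overlapping matches counted, was in 10 of those 10 and in 35.7% of all windows. TATAAA was in 0 of the 10 and in 13.6% of all, and CCAAT in 0 of the 10 and in 37.4% of all, both also searched on both strands. The member windows hold 22 to 48 CG dinucleotides each, and windows of like CG content were not compared. These shares therefore do not separate a trait of the members from the base content of their windows. A match is a run of letters and not a measured site.

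Among 12728 genes with a mean log2 signal of at least 6, those whose brightest probe set followed Smarca2 1430526_a_at most closely over the 12 arrays were Ckb (Pearson r = 0.9951), Dynap (0.985), Lpgat1 (0.984), Ctla2a (0.984) and Isoc2b (0.981). The 12 arrays come from only 4 lines, so these values mostly restate the order KC1, KC2, KC3, KC4. Ckb, the brain creatine kinase, had line means of 10.57, 10.13, 9.68 and 8.49 in that order. Ctla2a, which resembles the propeptide of cathepsin L, had 13.83, 13.36, 12.56 and 9.75.

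Among the genes with a probe set, in the gene order of GRCm38.p6, Smarca2 lies between Dmrt2 and Gm20616. Dmrt2, a DM-domain transcription factor, had line means of 5.97, 4.70, 4.55 and 7.14 in KC1 to KC4 on 1426867_at. It was higher in KC4 than in each other line, with a class difference of -2.07 (SE 0.256, limma adjusted p = 0.000364), opposite to Smarca2. Of the neighbours on the other side, Vldlr, the very-low-density lipoprotein receptor, was called lower in the highly metastatic lines on 3 of 6 probe sets, with KC1 highest (1417900_a_at: 7.63, 4.07, 4.00 and 6.68). Rfx3, a transcription factor of ciliogenesis, was called higher on 1437375_at (1.43, adjusted p = 0.00211) and not on 1425413_at (-0.25, adjusted p = 0.633). The other neighbours, Dock8, Kank1, Dmrt1, Dmrt3, Gm20616, Kcnv2 and Pum3, had no called probe set. Of their probe sets only Kank1 1433742_at (-0.94, adjusted p = 0.0143) and Pum3 1426931_s_at (0.30, adjusted p = 0.0144) passed, in opposite directions. The 10 nearest genes with a probe set thus did not share the Smarca2 pattern as a block, since 2 of them were called in the opposite direction.

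The core subunits had small differences. Smarcb1 encodes a core subunit that is lost in rhabdoid tumours. On 1416045_a_at its signals were 1219, 1225 and 1214 for KC1, 1037, 1189 and 1104 for KC2, 1716, 1684 and 1551 for KC3, and 1486, 1449 and 1465 for KC4. KC3 was highest, then KC4, KC1 and KC2, with no overlap, although the step from KC1 to KC2 did not pass (0.14, adjusted p = 0.115). KC3 exceeded KC2 by 0.57 (adjusted p = 3.81e-05), the largest step, between highly metastatic lines. The class difference of -0.17 (SE 0.0427, limma adjusted p = 0.0204) did not pass without any one of the KC4 arrays, with adjusted p between 0.0549 and 0.0787, or without line KC1 (-0.12, 0.173) or KC2 (-0.05, 0.412).

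The other Smarcb1 probe sets were less certain. On 1435856_x_at, a type that can pick up related transcripts, the arrays of a line spread widely, from 330 to 924 in KC1 and from 389 to 1005 in KC4, and no difference passed. On 1456938_at the KC2 arrays were all under the floor (13.1, 7.65 and 8.92), while signals were 48.2, 30.8 and 35.0 in KC1, 49.9, 22.6 and 70.6 in KC3, and 27.4, 37.0 and 34.6 in KC4. KC2 was lowest without overlap, by at least 1.22 against KC1 (adjusted p = 0.0494) and at least 1.43 against KC3 (adjusted p = 0.0163), and its difference from KC4 missed the threshold (adjusted p = 0.0706). All these signals are close to the floor, and the call against KC1 was lost with the replicate number as a block and with a trended, robust prior.

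Smarcc1 and Smarcc2 encode the paired scaffold subunits on which the core assembles. On Smarcc1 1455246_at the signals were 4773, 4691 and 4355 for KC1, 4060, 3954 and 3836 for KC2, 4003, 3373 and 3846 for KC3, and 3333, 3233 and 3232 for KC4. KC1 was highest and KC4 lowest without overlap, and KC2 and KC3 overlapped. The class difference was 0.32 (SE 0.0512, limma adjusted p = 0.00168), or 1.25-fold, although KC3 alone exceeded KC4 by only 0.19 (adjusted p = 0.0559).

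On Smarcc1 1423416_at the line means were 12.21 ± 0.0899, 12.12 ± 0.0671, 11.85 ± 0.13 and 11.86 ± 0.0321 (log2, SD, n = 3) in KC1 to KC4. KC1 and KC2 were above KC3 and KC4, which overlapped, so the split did not follow metastatic class. The class difference was 0.20 (SE 0.0575, limma adjusted p = 0.0368), and it missed the threshold without KC1 replicate 1 or 3, KC2 replicate 2 or 3, KC3 replicate 1 or 2, or any KC4 array, with adjusted p between 0.0579 and 0.131. With the replicate number as a block it was 0.0791, without line KC1 0.234 (difference 0.12) and without line KC2 0.133 (0.17). On 1423417_at the class difference was -0.05 (SE 0.0747, limma adjusted p = 0.756), and 1459824_at was under the floor on all 12 arrays.

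Smarcc2 1428382_at gave signals of 800, 845 and 868 for KC1, 527, 409 and 425 for KC2, 607, 636 and 528 for KC3, and 582, 712 and 747 for KC4. KC1 was highest and KC2 lowest without overlap, and KC3 and KC4 overlapped. KC1 exceeded KC2 by 0.89 (limma adjusted p = 0.00107), the largest difference between lines among the bright members that passed. The class difference was -0.16 (SE 0.101, adjusted p = 0.341), and KC4 lay among the highly metastatic lines.

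Smarce1 encodes the subunit with a DNA-binding HMG box. On 1422675_at the signals were 1243, 1131 and 1120 for KC1, 809, 1097 and 1003 for KC2, 1499, 1552 and 1407 for KC3, and 1132, 989 and 1005 for KC4. KC3 was above all other arrays, by 0.63 against KC2 (limma adjusted p = 0.00194) and 0.51 against KC4 (adjusted p = 0.00738). On 1422676_at KC1 had the highest mean instead, 10.46 ± 0.101 against 10.19 ± 0.0252 in KC3 (adjusted p = 0.014), so the probe sets disagreed on which line was high. Neither class difference passed (0.19, adjusted p = 0.186, and 0.07, adjusted p = 0.457), but the first passed without KC2 replicate 1 (0.23, adjusted p = 0.0259) or without line KC2 (0.34, adjusted p = 0.00873). A further probe set, 1430822_at, was under the floor on every KC3 and KC4 array and reached at most 46.5 elsewhere.

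**Figure D3:**
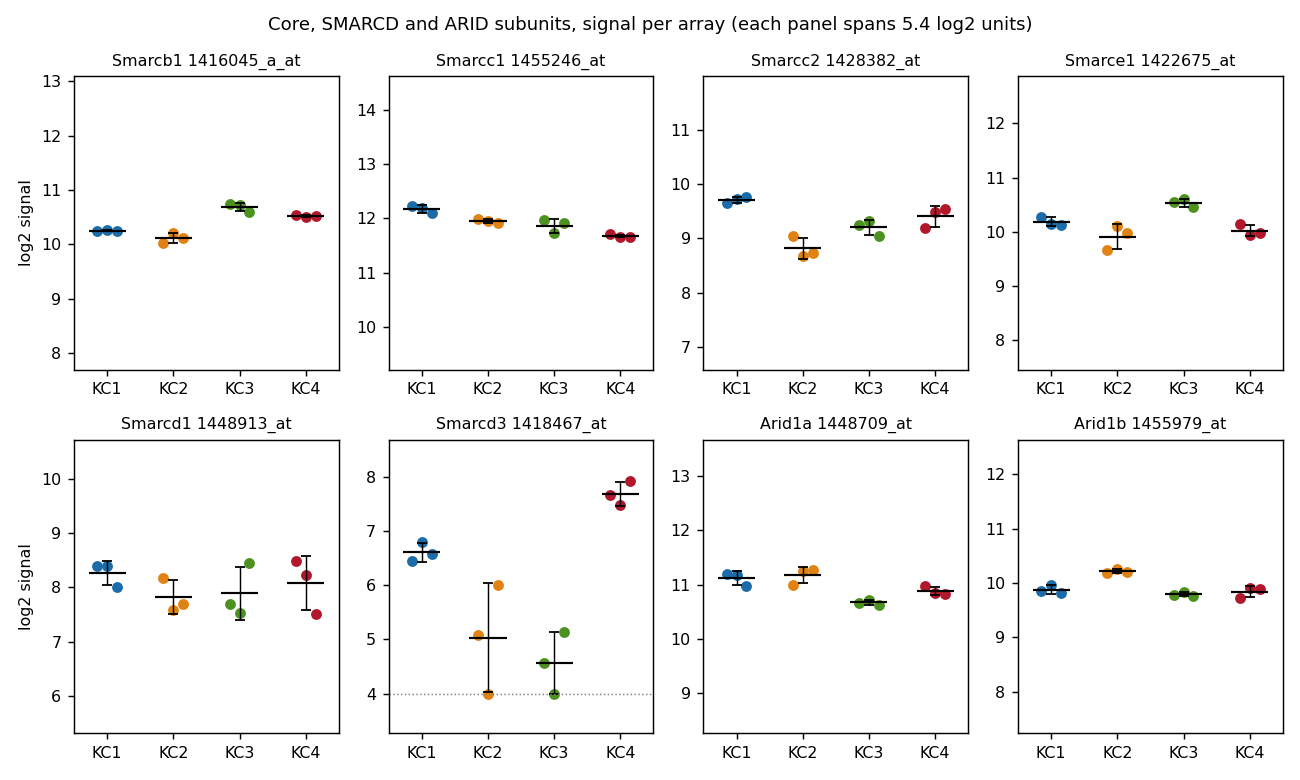
Log2 signal per array (points) of 1 probe set for each core, SMARCD and ARID subunit, with line mean and SD (the probe set with the smallest F-test p among those with a mean log2 of at least 5), every panel spanning the same number of log2 units. Smarcd3 has by far the widest spread between lines, from 4.57 in KC3 to 7.68 in KC4, with the dotted floor at 4, while in the other panels the lines differ by less than 1.

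The SMARCD subunits link the complex to transcription factors, and a complex takes up one of the family. Smarcd3, the member best known from heart and skeletal muscle, gave signals on 1418467_at of 86.6, 111 and 95.5 for KC1, 33.8, 7.58 and 64.2 for KC2, 23.7, 5.77 and 35.3 for KC3, and 203, 178 and 242 for KC4. KC4 was above all other arrays and KC1 was next, while KC2 and KC3 overlapped and each had 1 array under the floor. Line means were 6.60 ± 0.181, 5.03 ± 1.00, 4.57 ± 0.57 and 7.68 ± 0.222 (log2, SD, n = 3).

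The class difference of Smarcd3 was -2.29 (SE 0.38, limma adjusted p = 0.0021), a signal at least 4.87-fold higher in KC4, since 1 array each of KC2 and KC3 was raised to the floor. KC4 exceeded KC2 by 2.66 (adjusted p = 0.00233) and KC3 by 3.12 (adjusted p = 0.00108). Its difference from KC1, 1.08, was not called (adjusted p = 0.166). KC1 in turn exceeded KC2 by 1.58 (adjusted p = 0.0473) and KC3 by 2.03 (adjusted p = 0.0112). With the floor raised to 64, Smarcd3 was called between KC1 and KC4 and set KC4 apart, while KC1 was then no longer called against KC2 or KC3.

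Smarcd1, the family member found in most cell types, did not pass. On 1448913_at the signals were 336, 335 and 258 for KC1, 288, 191 and 208 for KC2, 208, 185 and 348 for KC3, and 356, 298 and 183 for KC4, so all lines overlapped. The class difference was -0.08 (SE 0.254, limma adjusted p = 0.909). On 1420240_at signals ran from 8.42 to 77.7, near the floor, with a class difference of -0.67 (SE 0.492, adjusted p = 0.424).

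The ARID subunits Arid1a and Arid1b carry a DNA-binding domain, exclude each other from a complex and define canonical BAF. On Arid1a 1448709_at the signals were 2351, 2317 and 2008 for KC1, 2046, 2445 and 2459 for KC2, 1621, 1682 and 1582 for KC3, and 2001, 1839 and 1822 for KC4. KC3 was lowest without overlap, KC4 next, and KC1 and KC2 overlapped. KC3 was below KC2 by 0.50 (limma adjusted p = 0.00178) and below KC1 by 0.45 (adjusted p = 0.00433), and its difference from KC4 did not pass (adjusted p = 0.117). On 1417440_at KC3 again had the lowest mean (10.25 ± 0.278), 0.50 below KC2 (adjusted p = 0.034), with overlapping KC1 arrays. The class differences were 0.11 (SE 0.0699, adjusted p = 0.369) and -0.23 (SE 0.122, adjusted p = 0.251).

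Arid1b 1455979_at gave 925, 996 and 895 for KC1, 1166, 1228 and 1177 for KC2, 883, 910 and 868 for KC3, and 845, 954 and 952 for KC4. KC2 was above all other arrays and the other 3 lines overlapped. KC2 exceeded KC1 by 0.34 (limma adjusted p = 0.00279), KC3 by 0.42 (adjusted p = 0.000407) and KC4 by 0.38 (adjusted p = 0.000902). The class difference of 0.12 (SE 0.0461, adjusted p = 0.0965) passed without line KC1 (0.17, adjusted p = 0.0431) or without line KC3 (0.21, adjusted p = 0.0323).

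A class difference can also be fitted with the line as a random block. The fit used a single correlation between arrays of a line, 0.504, for all probe sets. Its adjusted p therefore does not measure the spread of any single probe set between lines, and KC4 remains a single line. Only 421 of all probe sets were then called, and of the members Smarca2 1430526_a_at alone passed (adjusted p = 0.00789). The adjusted p was 0.110 and 0.0678 for the Smarca4 probe sets, 0.343 for Smarcd3, 0.343 for Smarcc1 1455246_at, 0.900 for 1423416_at and 1 for Smarcb1 1416045_a_at.

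The remaining subunits of the complexes were read from a list of 18 genes with 45 probe sets. Of these, 22 (48.9%) differed among the lines, against 38.6% of all probe sets. In the highly metastatic lines 1 was called higher, against 2.49% of all, and 0 were called lower, against 2.10%. By limma's adjusted p alone 4 (8.89%) were higher, against 12.2% of all, and 10 (22.2%) were lower, against 11.2%. The median class difference was -0.05. Ss18l1, an SS18 paralogue of neuronal BAF complexes, was the one called: on 1436911_at its means were 7.89 ± 0.0707, 8.19 ± 0.17, 7.90 ± 0.193 and 6.84 ± 0.381 in KC1 to KC4. It was lower in KC4 than in each other line, by 1.16 against their mean (SE 0.149, adjusted p = 0.000477, and 0.0851 with the line as a random block). Its other probe set, 1447700_x_at, did not pass (-0.35, adjusted p = 0.627).

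Phf10, a PHD-finger subunit of PBAF, set KC3 apart as highest on 1435774_at, with means of 8.01 ± 0.175, 7.38 ± 0.081, 9.05 ± 0.0594 and 7.69 ± 0.133. On 1449085_at KC3 was again highest, at 12.78 ± 0.0566, but KC4 was next at 12.16 ± 0.137. The class differences therefore had opposite signs, 0.45 (limma adjusted p = 0.00269) and -0.36 (adjusted p = 0.00415). The first was -0.0013 without line KC3, where the second was -0.85 (adjusted p = 0.000375). The second was -0.16 (adjusted p = 0.233) without line KC1 and -0.07 (adjusted p = 0.511) without line KC2.

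The probe sets that were lower in the highly metastatic lines by adjusted p alone, named here after their values were seen, came from 6 genes. Pbrm1, which defines PBAF, was lower on 3 of 3 probe sets, by 0.20, 0.26 and 0.24. Brd7, also of PBAF, was lower on 1448521_at by 0.58 (SE 0.0551, limma adjusted p = 7.31e-05), with means of 9.00, 8.81, 9.37 and 9.64 in KC1 to KC4. Arid2, the ARID subunit of PBAF, passed on 0 of 4 probe sets, with differences of 0.10 to 0.14 on the 3 bright ones. Smarcd2 was lower on 2 of 3, by 0.39 and 0.28, and the actin-like subunit Actl6a on 2 of 3, by 0.46 and 0.50. Brd9, of non-canonical BAF, was lower by 0.38 and Phf10 on the 1 probe set already given.

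Dpf2, a PHD-finger subunit of canonical BAF, was higher by 0.32 on 1416534_at (limma adjusted p = 0.00285). Its other probe set, 1429903_at, did not pass (0.48, adjusted p = 0.0541). Bcl7c was higher on 1449523_at by 0.24 (adjusted p = 0.0153), which was 0.06 (adjusted p = 0.659) without line KC3. Its other probe sets, 1446516_at, 1443898_at and 1447139_at, had differences of -0.14, -0.26 and -0.16, and none passed. Dpf2 and Bcl7c were also named after their values were seen. Among the 24 bright probe sets of this list, 3 were higher and 10 lower, while of all probe sets that bright 24.7% were higher and 22.8% lower. With the line as a random block the adjusted p of every probe set named from this list was 0.0851 or more. After median centring 9 of those that had passed missed the threshold, among them all 3 of Pbrm1 and both of Smarcd2.

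**Figure D4:**
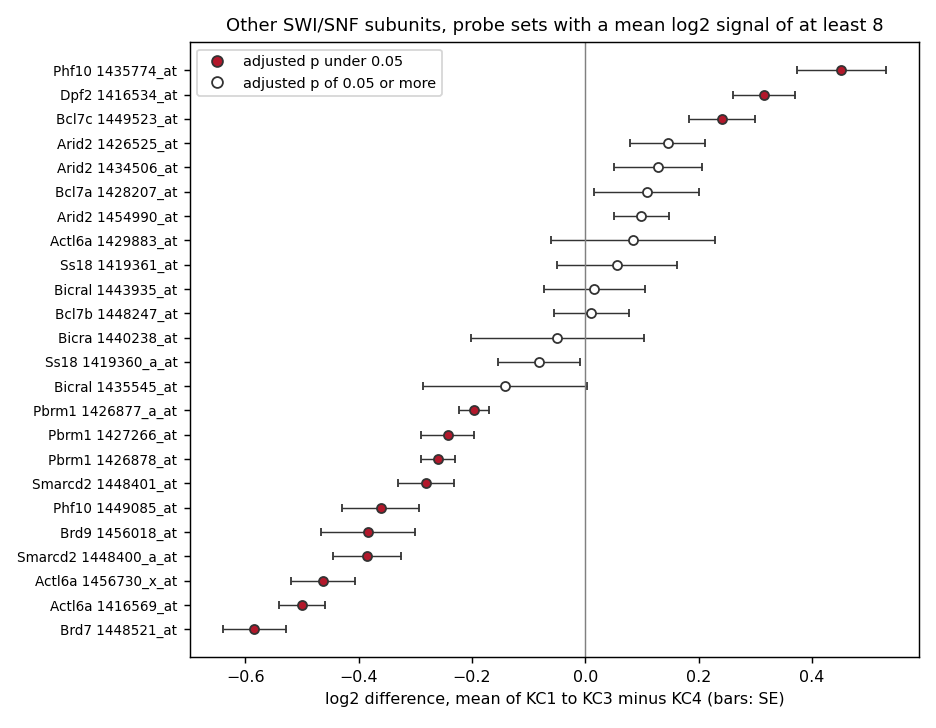
Class difference (log2, mean of KC1 to KC3 minus KC4, bars SE) of the 24 bright probe sets of the other subunits, filled where the adjusted p was under 0.05. The 10 filled points on the left run from -0.58 for Brd7 to -0.20 for Pbrm1, and the 3 on the right from 0.24 for Bcl7c to 0.45 for Phf10.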

How the data were processed

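The deposited table holds the authors' linear intensity of 45101 probe sets on 12 Affymetrix one-colour arrays, 3 for each of 4 cell lines. RNA was biotin-labelled as Affymetrix prescribes, per the labels. The software and background correction behind the intensity values are not given in the sources used here. Trimmed means (2%) were 500.002 to 500.003, so the arrays appear scaled to one target, which hides any change in total mRNA.

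Control probe sets (64) were left out, signals were floored at 16, and their log2 was fitted by limma 3.58.1 (R 4.3.3; lmFit, eBayes) with a coefficient for each line. P-values were adjusted by Benjamini-Hochberg over 45037 probe sets for each contrast. The fit was tested on simulated data. Figures used matplotlib 3.10.9. The platform annotation gave 1 symbol for 34945 probe sets and several for 932, and did not list 9160. Of those with 1 symbol, 34741 matched RefSeq (GRCm38.p6), which changed 0 symbols. No build is named for the intensity values, so coordinates are given only for RefSeq sequences.

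Every member probe set was named. Of the listed partners, those with a probe set called in the contrast of class or setting a line apart were named by rule. So were the 5 genes most like Smarca2 and, on each side of it, the 5 nearest genes with a probe set. Pbrm1, Brd7, Arid2, Smarcd2, Actl6a, Brd9, Dpf2, Bcl7c, Smarca5 and Baz1a fell outside this rule and were named after their values were seen. Further remodeller probe sets that passed the adjusted p are not named. The members and lists were chosen with earlier results of these data known. Replicate numbers did not pair the arrays: same-numbered arrays of different lines had correlations of deviations from -0.21 to 0.16, 2 of 18 over 0.1. The alternatives were the replicate block, each array or highly metastatic line left out, other floors, scalings, filters, priors and minimum differences, and the line as a random block. Precision is limited by 3 arrays a line.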

Additional observations from a re-analysis of the deposited data

How the results depend on the processing

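The 21 class differences of the members were recomputed 487 times: 456 kept their side of the threshold, 27 lost their adjusted p under 0.05, 4 gained it and 0 reversed. The 456 include 11 sign changes, all among differences that did not pass. Smarca2 1430526_a_at passed in all 24 alternatives, between 2.28 (floor of 64) and 4.88, and Smarcd3 ran from -2.89 to -1.48. Scaling moved the median class difference of all probe sets by 0.0276 at most. Of the members called by class (2), 1 was called without the dimmer 50% of probe sets, 7 with no minimum difference and 1 with the line as a random block, where 1 of the 7 past the adjusted p also remained past it. The 3 called between any lines became 1 without the dimmer 50%, 8 at a minimum of 0.5 and 15 with none. The count that sets a line apart was 2 with a floor of 64 or median centring, 8 with no minimum, and 1 to 2 when each array was left out. For KC1 and KC2 the count was 1 to 3 when each array was left out, 1 with a floor of 64 or without the dimmer 50%, and 7 with no minimum. For KC1 and KC3 it was 1 with a floor of 64 or without the dimmer 50%, and 9 with no minimum, and for KC1 and KC4 2 with a floor of 64 and 7 with no minimum. For KC2 and KC3 it was 1 to 3 when each array was left out, 1 with a floor of 64, quantile normalization, median centring, 1 probe set per gene or without the dimmer 50%, 5 at a minimum of 0.5 and 10 with none. For KC2 and KC4 it was 1 without the dimmer 50%, 4 at 0.5 and 10 with none, and for KC3 and KC4 1, 4 and 6. The listed partners called (3) were 11 at 0.5, 29 with no minimum and 0 with the line as a random block. The dimmer probe sets and the minimum change what is counted, and for the other settings the cause was not tested. With the replicate block, Smarcc1 1423416_at kept 0.20 and had an adjusted p of 0.0791; 12 members then differed among lines and 2 were called by class. The numbers do not pair the arrays. Limits: 1 poorly metastatic line, 3 arrays a line, a mean log2 signal under 8 in 7 of the 21 probe sets, and no detection calls.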

Other observations

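The other ATP-dependent remodellers (ISWI, CHD, INO80 and related families) were read from a list of 23 genes with 73 probe sets. Of these, 37 (50.7%) differed among the 4 lines, against 38.6% of all probe sets. In the highly metastatic lines 1 was called higher, against 2.49% of all, and 1 lower, against 2.10%. By limma's adjusted p alone 10 (13.7%) were higher, against 12.2% of all, and 5 (6.85%) lower, against 11.2%. The 4 probe sets that set a line apart, which 5.10% of all probe sets did, all concerned KC2. Chd7, the remodeller mutated in CHARGE syndrome, was lowest in KC2 on 1437745_at, at the floor on all 3 arrays, against 7.68 in KC1, 8.44 in KC3 and 6.24 in KC4 (log2 means). On 1448026_at it was 4.89 ± 1.19 in KC2 and 7.69, 8.63 and 7.72 in the other lines. Chd9 1457672_at was 6.70 ± 0.319 in KC2 and 8.76, 8.74 and 9.30 in KC1, KC3 and KC4, with a class difference of -1.24 (adjusted p = 6.85e-05, or 0.608 with the line as a random block). Without line KC2 the difference was -0.55. The other Chd9 probe sets did not set KC2 apart. On 1458078_at KC3 was lowest, 0.15 below KC2, and on 1441339_at KC2 was below the other lines by 0.14 to 0.24. Neither of their class differences passed (-0.46, adjusted p = 0.371, and -0.09, adjusted p = 0.832). Smarca1, an ISWI ATPase, was highest in KC2, with means of 6.39, 7.47, 4.62 and 4.61 in KC1 to KC4. Its class difference of 1.55 (adjusted p = 0.00192) was 0.90 (adjusted p = 0.0522) without line KC2.

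Smarca5, the other ISWI ATPase, was named after its values were seen. On 1424205_at it was highest in KC4, at 12.21 ± 0.0812 against 11.48 ± 0.145, 11.04 ± 0.224 and 11.44 ± 0.0702 in KC1, KC2 and KC3, a class difference of -0.89 (SE 0.0929, adjusted p = 0.000133). On 1424207_at it was -0.44 (adjusted p = 0.00138), which missed the threshold without line KC2. The other 2 probe sets did not pass: 1424206_at had -0.40 (adjusted p = 0.0801) with KC3 and KC4 at 12.48 and 12.45, and 1440048_at had -0.24 (adjusted p = 0.615). With the line as a random block 1424205_at and 1424207_at did not pass either. Baz1a, an ISWI partner in the ACF complex, was likewise named after its values were seen. It was highest in KC3 on both probe sets, with class differences of 0.51 and 0.55. The differences of KC1 from KC4 did not pass (0.02, adjusted p = 0.883, and 0.06, adjusted p = 0.708). Without line KC3 the class differences were 0.23 and 0.25, and the second missed the threshold. The 5′ 18S control that was high in KC4 accompanies these differences too, and its part in them was not tested.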
